A study of Mus musculus with 8 samples.

Results

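The amino acid transporters described here were chosen with earlier results of these data known, including that Slc38a1 was higher. They are the members, taken by gene symbol, of 6 solute carrier families, Slc38a, Slc1a, Slc7a, Slc3a, Slc36a and Slc43a. They make up 42 of the 22206 rows of the array table, 1 row for each gene, with 11 members in Slc38a, 7 in Slc1a, 15 in Slc7a, 2 in Slc3a, 4 in Slc36a and 3 in Slc43a. Left ventricles of 4 male mice with cardiac-specific overexpression of microRNA-100 (miR-100) were compared with those of 4 male wild type (WT) mice, all C57/BL6J, untreated and 8 weeks old. The sources used here do not give the promoter of the transgene, the number of founder lines or the litters. Each array is read as 1 mouse, so a p-value reflects the variation among these 8 mice and nothing beyond them.

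Cells take up amino acids through families of carriers that differ in what they move and in what drives them. Slc38a carriers use the sodium gradient to bring in glutamine, alanine and other small neutral amino acids, and Slc1a carriers bring in glutamate, aspartate or neutral amino acids. Slc7a carriers move cationic amino acids on their own, or exchange amino acids as light chains bound to a heavy chain of the Slc3a family. Slc36a includes carriers that move small amino acids with protons, often out of lysosomes, and Slc43a holds facilitated carriers of large neutral amino acids. In heart muscle these carriers supply amino acids for protein synthesis, for the citric acid cycle and for the sensing of nutrients by mTORC1.

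The microRNA raised in these hearts is shown because every comparison rests on it. It pairs with messenger RNAs mainly through its seed, bases 2 to 8, which stand in capitals. The sequence is that of RefSeq, build GRCm38.p6, chr9:41531437-41531458 on the plus strand, and is written 5′ to 3′. The labels do not say which arm of the hairpin was raised, and the 5′ arm is given.
mmu-miR-100-5p: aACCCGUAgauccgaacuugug

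No row of the deposited values (0) is named for miR-100 or its host gene, and its level is therefore not given. All 8 markers of heart muscle cells, among them Myh6 and Tnnt2, stood between percentile 98.49 and 99.95 of all row means, and 0 of them passed the test between the groups. Tnnt2 averaged 19.8 in miR-100 hearts and 19.8 in WT hearts, near the highest value of all arrays, 19.93. Whether signals this high can still show a difference was not tested. Of 63 measured markers in 10 cell type lists, 0 passed and 6 had an unadjusted p under 0.05, 4 higher and 2 lower, against 7.73% of all rows. Groups did not overlap for 2 markers, against 4.54% of all rows, and both are in the smooth muscle and pericyte list of 8 genes. These were Acta2, smooth muscle actin, with a difference of 1.11 (adjusted p = 0.203, limma), and the potassium channel gene Kcnj8, with -0.31 (adjusted p = 0.609, limma). The summed signal of that list ran from 16.33 to 16.69 in miR-100 hearts and from 16.24 to 16.46 in WT hearts, and its part in the results was not tested. On the first principal component, which held 21.7% of the variance, miR-100 replicates 1 to 4 scored 11.1, 30.8, 13.5 and 8.96. WT replicates 1 to 4 scored -13.0, -38.2, -9.76 and -3.49. On this component replicate 2 of each group lay farthest from its own group. The lowest correlation between 2 arrays was 0.988, and precision is limited by having 4 arrays in each group.

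In miR-100 hearts 1 of the 42 transporters changed, the sodium-coupled glutamine and alanine carrier Slc38a1, which rose 2.48-fold. Over all rows 0.14% passed the same test, 0.0946% as higher and 0.045% as lower. The other 41 transporters did not pass, which does not show that they were unchanged. Next in order of p were Slc38a6, at 0.548 of the WT signal, and Slc38a3, at 0.735 of it, and both belong to the same family as Slc38a1. Values are log2 signals as the authors deposited them, and each difference is the miR-100 mean minus the WT mean on that scale. A transporter is said to have changed where limma's p, adjusted by Benjamini-Hochberg over all 22206 rows, was under 0.05.

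Slc38a1, also called SNAT1, is a carrier of system A, the sodium-driven uptake of small neutral amino acids. Its log2 signal was 10.80, 10.70, 10.95 and 10.82 in miR-100 hearts, against 9.27, 9.75, 9.50 and 9.52 in WT hearts. The lowest miR-100 value lay 0.95 above the highest WT value, so the groups were far apart compared with their own spread. The means were 10.82 ± 0.10 in miR-100 hearts and 9.51 ± 0.20 in WT hearts (SD, n = 4 each). The difference was 1.31 (SE 0.15, 95% confidence interval 0.99 to 1.63), which is 1.99-fold to 3.09-fold, with a limma adjusted p of 0.00248. It stood at rank 6 of all rows by p. An exact permutation test (two-sided, 70 ways to assign the arrays) gave p = 0.0286, the smallest that 4 against 4 arrays can give. When 1 array at a time was left out, the difference passed in 8 of 8 fits and ran from 1.23 to 1.39 with limma adjusted p between 0.00438 and 0.0164. Without miR-100 replicate 2 it was 1.35 (limma adjusted p = 0.00992).

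**Figure D1:**
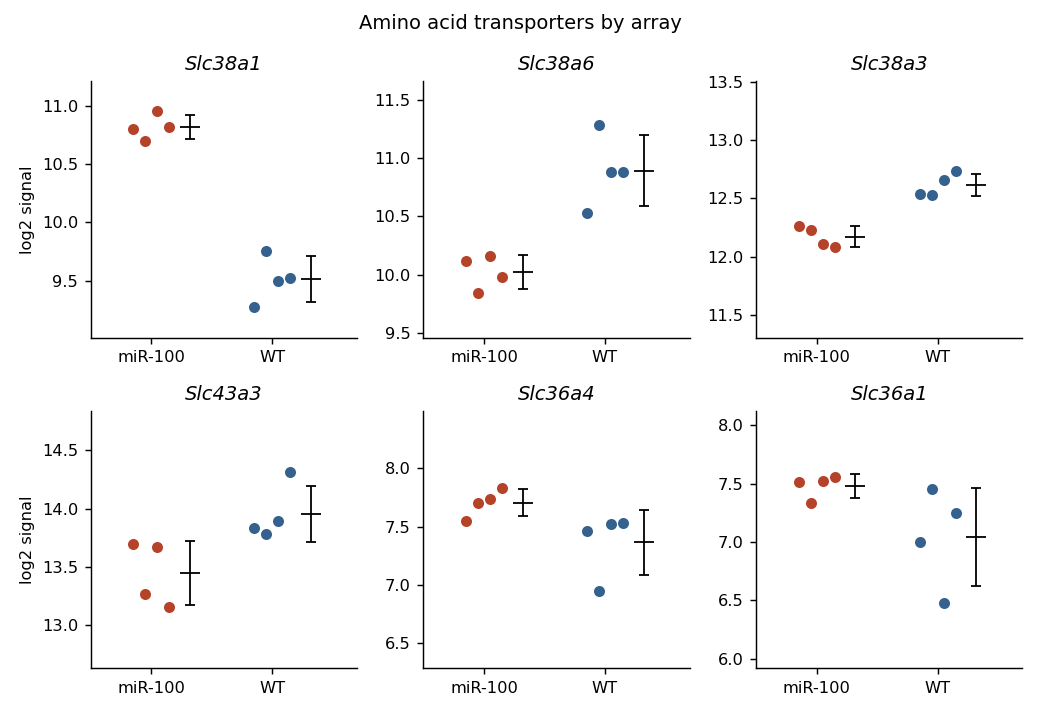
Log2 signal (vertical axis, every panel spans the same 2.2 log2 units) of 6 transporters in each miR-100 array (red, left) and WT array (blue, right), with the mean ± SD beside the points. Slc38a1 stands higher in all miR-100 arrays, with a gap of 0.95 between the groups, whereas the gap is 0.02 for Slc36a4 and the groups overlap for Slc36a1.

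System A has 2 other carriers, Slc38a2 and Slc38a4, and in the RefSeq gene order of chromosome 15 the 3 genes lie side by side, with 0 protein-coding genes between neighbours. Slc38a2 (SNAT2), the system A carrier that amino acid starvation induces, had 16.05, 16.15, 15.80 and 15.63 in miR-100 hearts, against 15.80, 15.35, 15.72 and 15.78 in WT hearts. The groups overlapped, and the difference of 0.24 had a 95% confidence interval of -0.11 to 0.60 (limma adjusted p = 0.796). Slc38a4 (SNAT4), known mainly from liver and placenta, had 9.03, 9.60, 8.61 and 8.37 in miR-100 hearts, against 8.89, 9.09, 8.56 and 8.93 in WT hearts. Its miR-100 values lay on both sides of the WT values, and the difference was 0.03 (95% confidence interval -0.47 to 0.54). Its sign depended on single arrays, since leaving them out in turn gave -0.198 to 0.213. These intervals allow for changes of either neighbour that are smaller than that of Slc38a1.

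The rise of Slc38a1 was larger than the difference of either neighbour when each array was compared with itself. Within an array, the log2 signal of Slc38a1 minus that of Slc38a2 averaged -5.09 ± 0.31 in miR-100 hearts and -6.15 ± 0.39 in WT hearts (SD, n = 4 each), a shift of 1.06 (two-sided exact permutation p = 0.0286). For Slc38a1 minus Slc38a4 the averages were 1.92 ± 0.62 in miR-100 hearts and 0.64 ± 0.23 in WT hearts (SD, n = 4 each), a shift of 1.27 (two-sided exact permutation p = 0.0286). Both p-values are the smallest possible with these arrays, and adjustment over the 2 comparisons left them at 0.0286. The signals of different rows depend on their probes, so these figures compare changes and not amounts. Slc38a1 was known to be higher when the 2 neighbours were chosen for comparison. The p-values therefore largely restate its known separation between the groups and are no independent support.

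**Figure D2:**
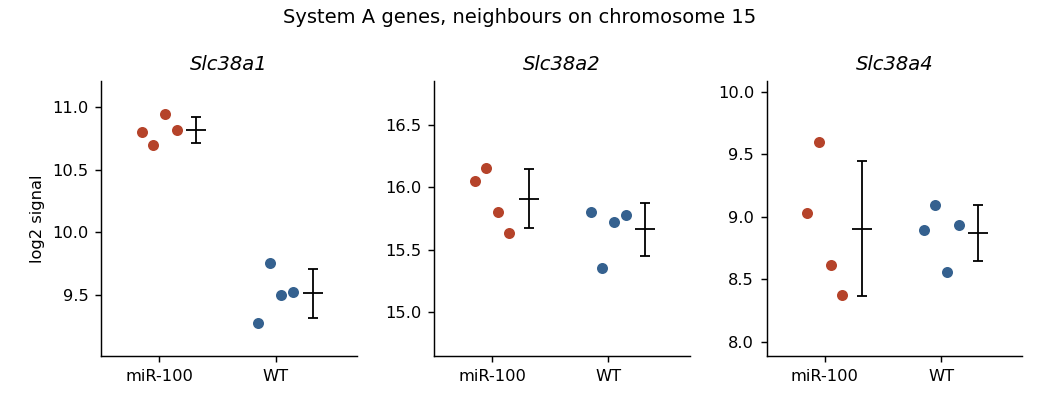
Log2 signal of the system A genes Slc38a1, Slc38a2 and Slc38a4 in miR-100 arrays (red, left) and WT arrays (blue, right), with the mean ± SD beside the points and the same span of 2.2 log2 units in each panel. The groups separate for Slc38a1 and overlap for both neighbours.

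Slc38a6 (SNAT6), a family member described in brain as a carrier of glutamine and glutamate, had the largest negative difference of the 42. Its signal was 10.12, 9.84, 10.16 and 9.98 in miR-100 hearts, against 10.53, 11.28, 10.88 and 10.88 in WT hearts. All miR-100 values were below all WT values, with a gap of 0.37. The means were 10.03 ± 0.15 in miR-100 hearts and 10.89 ± 0.31 in WT hearts (SD, n = 4 each), and the difference was -0.87 (95% confidence interval -1.24 to -0.50). With a limma adjusted p of 0.0787 it did not pass. It passed with an intensity trend in the model (limma adjusted p = 0.0287), the 1 setting of 9 in which it did. Leaving out arrays one at a time, it passed in 0 of 8 fits. The highest WT value was that of replicate 2, 1 of the 2 arrays farthest from their groups on the first principal component. Without this array the difference was -0.74. Without the other, miR-100 replicate 2, it was -0.81.

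The window around the RefSeq start of Slc38a6 is shown as the lowest member of the group, with 250 bases before the start and 50 after it. Windows were found for 31 of the 42 members, Slc38a1 not being among them, and each was searched on both strands for TGATGNAA, a composite site of ATF4 and C/EBP factors in genes that respond to amino acid shortage, for the E box CACGTG, for the cyclic AMP response element TGACGTCA and for CCAAT. The Slc38a6 window holds TGACGTCA, in capitals below, starting 121 bases before the start. Among all 32851 windows of this length 1.79% hold that motif. A member can have several windows, and the 31 members searched have 42, of which 1, that of Slc38a6, holds it. TGATGNAA was found for 3 members, Slc1a4, Slc7a7 and Slc7a11, in 4 of these 42 windows, against 3.97% of all windows. CACGTG was found for 7 members, in 7 of the 42 windows, against 7.15% of all windows. CCAAT was found for 11 members, in 15 of the 42 windows, against 37.4% of all windows. A match is a string of letters and shows no binding. The window lies at chr12:73286598-73286897 on the plus strand of GRCm38.p6 in RefSeq.
Slc38a6: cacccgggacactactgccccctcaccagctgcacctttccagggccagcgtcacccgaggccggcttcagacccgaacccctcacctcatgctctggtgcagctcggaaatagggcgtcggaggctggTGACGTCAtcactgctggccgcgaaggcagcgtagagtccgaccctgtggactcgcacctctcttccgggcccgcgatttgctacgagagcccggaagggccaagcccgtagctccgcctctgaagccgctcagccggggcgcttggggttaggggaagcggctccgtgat

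Slc38a3 (SNAT3) is a carrier of system N, which moves glutamine, histidine and asparagine with sodium in exchange for protons. It had 12.26, 12.23, 12.11 and 12.08 in miR-100 hearts, against 12.54, 12.53, 12.66 and 12.73 in WT hearts. The spread within each group was small, with an SD of 0.09 in miR-100 hearts and 0.10 in WT hearts, and the groups did not overlap. The difference of -0.44 (95% confidence interval -0.74 to -0.15) had an unadjusted p of 0.00558 and did not pass over all rows (limma adjusted p = 0.348). Slc38a5 (SNAT5), the other system N carrier, differed by -0.055 with overlapping groups.

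The remaining Slc38a members overlapped between the groups. Slc38a7, a lysosomal carrier that releases glutamine, differed by 0.29 (limma adjusted p = 0.696). Slc38a9, the lysosomal arginine sensor that signals to mTORC1, had 12.93, 12.66, 12.87 and 12.88 in miR-100 hearts and 12.62, 12.98, 12.54 and 12.76 in WT hearts, a difference of 0.11. Slc38a10 differed by 0.13 and Slc38a11 by -0.38 (limma adjusted p = 0.683). Slc38a8, at percentile 3.42 of all row means, was the dimmest of the family and differed by 0.065. Of the 11 members, 7 had differences above 0 and 4 below, and the family's median was 0.065, beside -0.015 over all rows.

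Among the Slc1a carriers 0 of 7 passed, and in 0 of them did the groups separate. Slc1a5 (ASCT2), an exchanger that brings glutamine into many growing cells, had 7.19, 6.66, 6.61 and 6.50 in miR-100 hearts, against 6.92, 6.95, 6.20 and 6.77 in WT hearts. Its difference was 0.03, with a 95% confidence interval of -0.41 to 0.47. The related exchanger Slc1a4 (ASCT1) had the lowest difference of the family, -0.16. The 5 high-affinity glutamate carriers Slc1a1, Slc1a2, Slc1a3, Slc1a6 and Slc1a7, best known for clearing glutamate at synapses, had differences from -0.12 for Slc1a6 to 0.12 for Slc1a2. Of these, 4 stood below percentile 50 of all row means. The family's median was 0.03.

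Among the Slc7a carriers 0 of 15 passed, with a median of -0.02 and differences from -0.37 to 0.38. The highest was that of Slc7a1 (CAT1), the widely expressed carrier of arginine and lysine, with 7.67, 7.17, 7.45 and 7.52 in miR-100 hearts and 6.48, 7.55, 7.38 and 6.89 in WT hearts (limma adjusted p = 0.732). Slc7a3 (CAT3), another cationic carrier, had the lowest, at 3.98, 3.51, 3.67 and 3.65 in miR-100 hearts and 3.93, 3.85, 4.58 and 3.94 in WT hearts. Without WT replicate 1 the difference of Slc7a1 was 0.18, and without WT replicate 3 that of Slc7a3 was -0.20. In both genes the groups overlapped, and Slc7a3 stood at percentile 18.3 of all row means. Slc7a2, which also carries arginine, differed by -0.0475, and Slc7a4 and Slc7a14, relatives of these carriers by sequence, differed by 0.25 and -0.11.

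Slc7a5 (LAT1), the light chain that exchanges glutamine for leucine and other large amino acids, had 5.0, 5.67, 4.76 and 4.88 in miR-100 hearts, against 4.99, 4.57, 4.85 and 4.44 in WT hearts. The groups overlapped, miR-100 replicate 2 was the highest array, and the difference of 0.36 (95% confidence interval -0.08 to 0.81) did not pass (limma adjusted p = 0.721) and was 0.17 without miR-100 replicate 2. Slc7a8 (LAT2), with overlapping substrates, differed by 0.015. Slc7a11 (xCT), the exchanger of cystine for glutamate that feeds glutathione synthesis, differed by -0.08. The exchangers of cationic for neutral amino acids, Slc7a6 and Slc7a7, differed by 0.19 and -0.14. Over the 10 light chains, which also include Slc7a9, Slc7a10, Slc7a12, Slc7a13 and Slc7a15, 5 differences lay above 0 and 5 below.

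The heavy chains bring the light chains to the cell surface. Slc3a2 (CD98), the partner of Slc7a5, Slc7a8 and Slc7a11, had 12.20, 12.46, 12.36 and 11.99 in miR-100 hearts, against 12.25, 12.36, 12.44 and 12.53 in WT hearts. The groups overlapped, with a difference of -0.14 (95% confidence interval -0.47 to 0.18, limma adjusted p = 0.891). Slc3a1, the partner of Slc7a9 in kidney and intestine, differed by -0.0225 and stood at percentile 29.0 of all row means.

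In the Slc36a family 0 of 4 passed, and the 2 members with the highest differences were Slc36a1 (PAT1), found on lysosomes, and Slc36a4 (PAT4). Slc36a1 had 7.51, 7.33, 7.52 and 7.56 in miR-100 hearts, against 7.0, 7.45, 6.48 and 7.25 in WT hearts. The groups overlapped through WT replicate 2, and the WT values were spread more widely, with an SD of 0.10 in miR-100 hearts and 0.42 in WT hearts. The difference of 0.43 had an unadjusted p of 0.0424 and a limma adjusted p of 0.624, and it was 0.25 without WT replicate 3. Slc36a4 had 7.55, 7.70, 7.74 and 7.83 in miR-100 hearts, against 7.46, 6.95, 7.52 and 7.53 in WT hearts. Its groups were separated by 0.02, and the difference of 0.34 (limma adjusted p = 0.675) was 0.20 without WT replicate 2. With quantile normalization its groups overlapped. Slc36a2, which lies beside Slc36a1 in the gene order of chromosome 11, and Slc36a3, which lies beside Slc36a2, differed by -0.16 and -0.0825.

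In the Slc43a family 0 of 3 passed. Slc43a3, a relative of the large neutral amino acid carriers that is known to transport purine nucleobases, had 13.70, 13.27, 13.67 and 13.16 in miR-100 hearts, against 13.83, 13.78, 13.89 and 14.31 in WT hearts. All miR-100 values were lower, by a gap of 0.08, and the difference of -0.50 (95% confidence interval -0.89 to -0.12) had an unadjusted p of 0.0141 and a limma adjusted p of 0.456. Endothelial cells are known to express this gene. Of 7 endothelial markers 0 passed. The highest was the tight junction gene Cldn5, at 7.54 ± 0.28 in miR-100 hearts and 6.99 ± 0.21 in WT hearts (SD, n = 4 each), with an unadjusted p of 0.00744 and a limma adjusted p of 0.379 for the difference of 0.55. The list's median difference was -0.0375, and its summed log2 signal ran from 15.10 to 15.39 in miR-100 hearts and from 15.19 to 15.35 in WT hearts. In bulk tissue, fewer cells of a type and less RNA per cell cannot be told apart. The leucine carriers Slc43a1 (LAT3) and Slc43a2 (LAT4) differed by -0.18 and 0.35, with overlapping groups and limma adjusted p of 0.906 and 0.679.

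**Figure D3:**
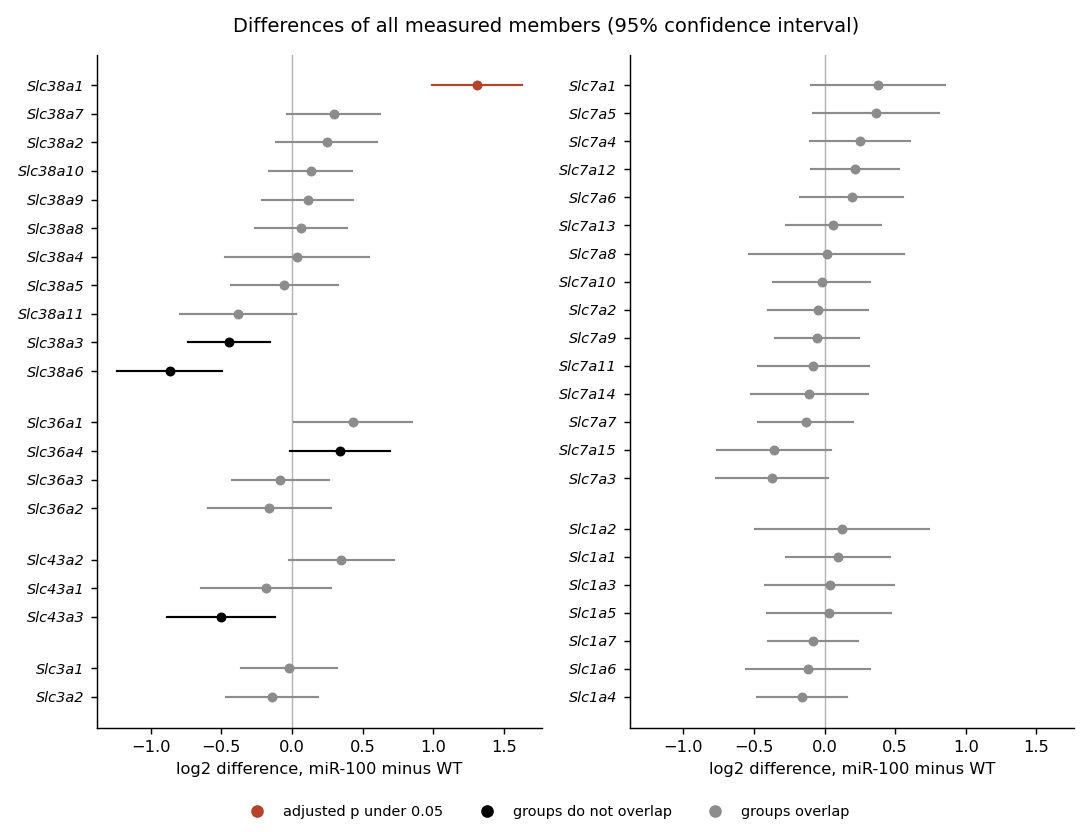
Log2 difference, miR-100 minus WT, of all 42 transporters by family, with the 95% confidence interval of the limma fit (n = 4 arrays per group). Slc38a1 (red) is the 1 member past an adjusted p of 0.05, black marks the other 4 members whose groups do not overlap, and grey the 37 whose groups overlap.

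Over all 42 transporters, 21 differences lay above 0 and 21 below, with a median of -0.0025. The groups did not overlap in 5 members, which were Slc38a1 and Slc36a4 above WT and Slc38a3, Slc38a6 and Slc43a3 below it. Over all rows 4.54% had groups that did not overlap, 2.21% with miR-100 above and 2.33% with it below. An unadjusted p under 0.05 was reached by 5 members, 2 higher and 3 lower, against 7.73% of all rows, 3.55% higher and 4.17% lower. All of these members stood among the 23 transporters above percentile 50 of row means, where 5.92% of all rows had groups that did not overlap. Of the 19 dimmer transporters 0 separated, a count too small to set apart from the 4.54% of all rows. Low signal may also limit what can be seen in them, which was not tested. Without WT replicate 2 the counts were 6 members with groups that did not overlap and 8 with an unadjusted p under 0.05. Without miR-100 replicate 2 they were 7 and 6. Groups separate more easily with an array left out, and shares over all rows are not given for these fits. These counts are therefore not comparable with the shares above.

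By family, the median difference was 0.065 in Slc38a, 0.03 in Slc1a, -0.02 in Slc7a, -0.0825 in Slc3a, 0.13 in Slc36a and -0.18 in Slc43a. When single arrays were left out, the median ran from 0.0483 to 0.109 in Slc38a, from -0.0975 to 0.0317 in Slc1a, from -0.0625 to 0.0517 in Slc7a, from -0.135 to -0.05 in Slc3a, from 0.0625 to 0.198 in Slc36a and from -0.352 to -0.00167 in Slc43a. These medians were not tested. The median over the 10 Slc38a members other than Slc38a1 was 0.05. Members of a family went in both directions in 5 of the 6 families, the exception being Slc3a with its 2 genes below 0.

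**Figure D4:**
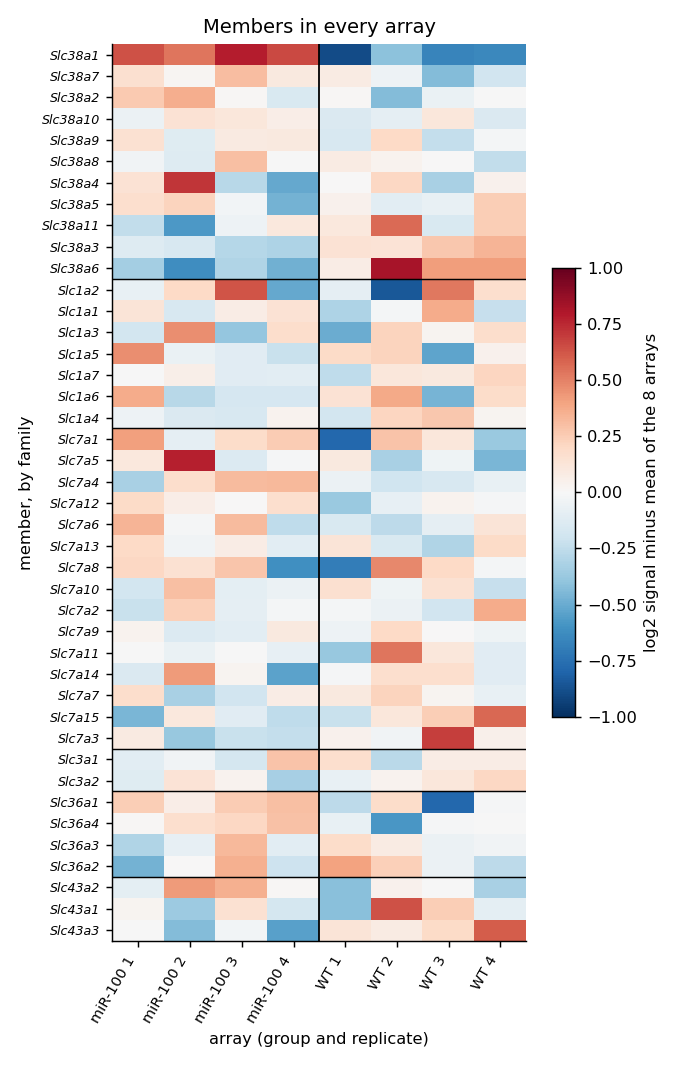
Log2 signal of each of the 42 transporters (rows, grouped by family and ordered by difference) minus its mean over the 8 arrays, in the miR-100 arrays (left of the line) and WT arrays (right of it). The top row, Slc38a1, is red in all miR-100 arrays and blue in all WT arrays, and WT replicate 2 holds the highest value of Slc38a6 and the lowest of Slc1a2.

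Other genes of amino acid handling were compared in 7 lists, of which 123 genes were measured, and 0 passed. In all, 11 had an unadjusted p under 0.05, 4 higher and 7 lower, and 9 had groups that did not overlap, against 7.73% and 4.54% of all rows. Among 22 other amino acid and peptide transporters the lowest p was that of Slc17a7 (VGLUT1), which loads glutamate into synaptic vesicles. It had 9.05, 8.87, 9.61 and 10.08 in miR-100 hearts, against 8.48, 7.67, 8.13 and 8.14 in WT hearts. The groups did not overlap, and the difference of 1.30 had a limma adjusted p of 0.0776. Of 10 mitochondrial amino acid carriers 0 reached an unadjusted p of 0.05, and the ornithine carrier Slc25a15 had the lowest p, with a difference of -0.23.

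In the lists of sensors and enzymes downstream of uptake 0 genes passed. Among 32 genes of amino acid sensing upstream of mTORC1, 1 was higher and 2 were lower at an unadjusted p under 0.05, against 3.55% and 4.17% of all rows. The lowest p was that of Mios, a subunit of the GATOR2 complex, with 5.62, 5.72, 5.53 and 5.6 in miR-100 hearts, against 6.41, 5.86, 5.99 and 6.08 in WT hearts (difference -0.47, limma adjusted p = 0.404). The arginine sensor gene Castor1 and its relative Castor2 differed in opposite directions, by -0.39 and 0.59, without overlap in either. Of 12 measured enzymes of glutamine, glutamate and aspartate metabolism, Asns, asparagine synthetase, had the lowest p, with a difference of 0.45 (95% confidence interval -0.01 to 0.91, limma adjusted p = 0.673). Among 19 genes of branched-chain amino acid breakdown, Dbt, a subunit of the branched-chain keto acid dehydrogenase, had the lowest p, with a difference of -0.33 (limma adjusted p = 0.664).

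The ATF4 pathway, through which a shortage of amino acids induces many transporters, was followed in 19 measured genes outside transport. Their median difference was -0.015, and 8 lay above 0 and 11 below. At an unadjusted p under 0.05 there were 0 higher and 2 lower, against 3.55% and 4.17% of all rows. Cebpb, a factor of this response, had the lowest p, with a difference of -0.44 (limma adjusted p = 0.399). The other was Ddit4, an inhibitor of mTORC1 signalling, with 7.33, 7.01, 7.64 and 7.04 in miR-100 hearts, against 7.58, 7.31, 8.88 and 9.10 in WT hearts. Its groups overlapped, and the difference was -0.96 (unadjusted p = 0.0154, limma adjusted p = 0.467). Of 9 regulators of the amount of transporter at the cell surface, 2 were higher and 1 lower at an unadjusted p under 0.05. Over all rows these shares were 3.55% and 4.17%. Groups did not overlap for 2 of the 9, against 4.54% of all rows. The lowest p was that of Txnip, an arrestin-domain protein known for removing glucose transporters. Its signal was 18.01, 18.18, 18.32 and 17.72 in miR-100 hearts, against 16.12, 17.35, 16.90 and 16.76 in WT hearts, a difference of 1.27 with a limma adjusted p of 0.0593. Sgk1, a kinase that keeps several amino acid transporters at the surface, differed by -0.93 with overlapping groups (limma adjusted p = 0.345).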

How the data were processed

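Total RNA was labelled and hybridised to 8 Affymetrix arrays, per the labels' protocols. The authors deposited a log2 signal for each transcript cluster (a set of probes against 1 transcribed region). Per the submitters' processing notes, the software was Transcriptome Analysis Console 4.0. The sources used here do not give summarization, normalization or build. Column medians lay between 5.70 and 5.74, and values ran from 2.29 to 19.93.

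Of 22206 rows, 19572 carry 1 symbol in the platform annotation and 2634 none. All 42 transporters matched RefSeq (GRCm38.p6) by Entrez number. Nothing was transformed or filtered. limma 3.58.1 in R 4.3.3 fitted all rows, without covariates, adjusting by Benjamini-Hochberg at 0.05. Exact tests used scipy 1.17.1. The fit was first tested on simulated data. A list's summed signal is the log2 of its summed linear signals.

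Members, lists and naming rule were chosen with earlier results of these data known. The rule names members past the threshold, with an unadjusted p under 0.05 or without overlap, 5 set members, each family's brightest, dimmest, highest and lowest, and each list's lowest p. Other members, Castor1, Castor2, Ddit4 and Sgk1, and the marker genes with values, are named after their values were seen. Alternatives covered moderation, array weights, normalization, dim rows, thresholds, a replicate block and single arrays left out. Same-numbered arrays did not deviate together, with correlations from -0.0596 to 0.0663.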

Additional observations from a re-analysis of the deposited data

Results flagged for a closer look

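In 4 of the 84 groups of 4 arrays that the 42 transporters make, a single array lay far from the other 3, where chance gives about 1 in 20. Slc36a4 had 6.95 in WT replicate 2, against 7.46 to 7.53 in the other WT arrays. On the first principal component of all rows, WT replicate 2 was also the WT array farthest from its group. Slc7a3 had 4.58 in WT replicate 3, against 3.85 to 3.94. Slc1a6 had 3.86 in miR-100 replicate 1, against 3.21 to 3.32, and Slc7a8 had 6.35 in miR-100 replicate 4, against 7.11 to 7.24. None of the 4 genes passed the test (0 in limma), with an unadjusted p of 0.0570 for Slc36a4, 0.0635 for Slc7a3, 0.565 for Slc1a6 and 0.954 for Slc7a8.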

How the results depend on the processing

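Slc38a1 kept its direction and its side of the threshold in all 17 other limma fits. The exact permutation test gave p = 0.0286, the smallest possible, without adjustment over all rows, so it cannot be set against that threshold. With the replicate block the limma adjusted p of Slc38a1 was 0.0150, and 1 transporter and 21 rows passed. The labels do not say that replicate numbers pair mice, so this fit does not decide whether the effect is weaker. Rows past the threshold numbered 65 with an intensity trend and 65 at an adjusted p of 0.10, and in both Slc38a6 joined, so that 2 transporters passed. Leaving out single arrays gave 11 to 27 rows, with 12 without miR-100 replicate 1, 11 without replicate 3 or 4 of that group and 15 without WT replicate 2 or 3. In those fits 1 transporter passed each time. Groups did not overlap for 5 to 8 transporters (8 without WT replicate 1), which happens more easily with fewer arrays. An unadjusted p under 0.05 was reached by 4 to 8 (8 without WT replicate 2), a count added after the data were seen. Shares over all rows are not given for these fits. Among rows above percentile 25 or 50 the Slc36a median was 0.34, where Slc36a3 drops out, and the Slc7a median 0.104. Without single arrays the Slc1a median ran from -0.0975 to 0.0317 and the Slc7a median from -0.0625 to 0.0517. Of the 42 transporters 15 changed direction when single arrays were left out, running from -0.141 to 0.319 for Slc1a2, from -0.14 to 0.11 for Slc1a5, from -0.203 to 0.00333 for Slc36a3, from -0.025 to 0.118 for Slc38a8, from -0.198 to 0.213 for Slc38a4, from -0.139 to 0.0942 for Slc38a5, from -0.124 to 0.169 for Slc1a3, from -0.135 to 0.0675 for Slc7a2, from -0.213 to 0.221 for Slc7a8, from -0.0933 to 0.00417 for Slc7a9, from -0.123 to 0.0367 for Slc7a10, from -0.218 to 0.085 for Slc7a11, from -0.0267 to 0.137 for Slc7a13, from -0.268 to 0.0517 for Slc7a14 and from -0.12 to 0.0333 for Slc3a1. With quantile normalization Slc3a1 was 0.023, Slc7a10 0.0259 and Slc7a8 -0.00938. In that fit the groups of Slc36a4 overlapped, and 4 transporters had groups that did not. The cause was not tested. No transporter had several rows, so averaging rows gave no other value. Low signal may limit the 19 dim transporters, which was not tested.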
